A study of Homo sapiens with 7 samples.

Results

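Interferon-induced genes were followed in RNA sequencing libraries from cells given PTH (parathyroid hormone, 4 libraries) or PBS (the saline control, 3 libraries). The genes were taken by name from a list of 49 that covers antiviral effectors, ISG15 and ubiquitin-type genes, GTPases, nucleic acid sensors, transcription factors and interferon receptors. Of these 48 were found in the deposited tables, each in 1 row, and Xaf1 was not found. To be tested a gene needed a mean FPKM of 1 or more across all 7 libraries, which 46 of them had, out of 10667 genes tested in all. FPKM counts sequenced fragments relative to transcript length and library size, so levels can be compared between genes. All samples carry the label LX2, an established line of human hepatic stellate cells, the liver cells that make scar matrix. The series title concerns parathyroid hormone receptor 1 and CREBL2 in liver fibrosis. The sources used here do not give the dose of PTH or the time of exposure. They also do not say that each library is a culture of its own, and the p-values therefore reflect the scatter of these libraries alone, which may be technical. The tables identify every gene by a rat Ensembl identifier although the labels name a human line, so genes carry their rat symbols here and the species of the cells was not settled.

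Interferons are secreted in response to viral and other foreign nucleic acids. Type I interferons bind the receptor of IFNAR1 and IFNAR2, and interferon gamma binds that of IFNGR1 and IFNGR2. The receptors activate JAK kinases, which phosphorylate STAT proteins. A complex that holds STAT2 and IRF9 binds the interferon-stimulated response element (ISRE) and switches on antiviral genes, while interferon gamma induces targets such as IRF1 and the guanylate-binding proteins. Many of these promoters also respond to IRF3 or NF-kB. In the liver, stellate cells can respond to interferons, which are known to restrain fibrogenic activation.

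RefSeq promoters of the human counterparts (GRCh38.p14, 250 bases before to 50 after a gene's start) were matched by symbol for 29 of the 46 tested genes. The ISRE core was searched for on both strands, as a pair of GAAA repeats with any 2 bases between them, and matches may overlap each other or those of the other motif. It was present in 17 of the 29 genes (58.6%), against 1195 of 27305 genes in the whole promoter table (4.38%). Among genes that fell with PTH it was present in 4 of 7, and among the other tested members in 13 of 22. A loose NF-kB core, 3 G, any 5 bases and 2 C or 2 G, any 5 bases and 3 C, was present in 20 of the 29 genes (69.0%) and in 61.7% of all genes. A match is a string of letters and does not show that a factor binds there. The stretches from 180 bases before to 20 after the start are given here, 5′ to 3′ with the ISRE core in capitals, for 4 genes that fell and for ISG15, which did not pass the test.
RSAD2 (chr2:6877597-6877796, plus strand): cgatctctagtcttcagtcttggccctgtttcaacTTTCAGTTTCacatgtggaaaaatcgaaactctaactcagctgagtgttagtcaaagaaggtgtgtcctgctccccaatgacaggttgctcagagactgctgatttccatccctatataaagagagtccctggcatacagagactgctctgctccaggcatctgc
IFITM3 (chr11:320841-321040, minus strand): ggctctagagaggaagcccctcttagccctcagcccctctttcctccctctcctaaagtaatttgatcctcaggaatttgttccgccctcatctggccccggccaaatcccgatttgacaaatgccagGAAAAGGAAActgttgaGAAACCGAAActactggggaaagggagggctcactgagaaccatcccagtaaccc
IFI44 (chr1:78649609-78649808, plus strand): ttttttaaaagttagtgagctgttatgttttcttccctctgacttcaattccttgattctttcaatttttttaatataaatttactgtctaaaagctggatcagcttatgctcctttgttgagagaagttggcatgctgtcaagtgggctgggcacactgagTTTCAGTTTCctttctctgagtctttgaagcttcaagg
EIF2AK2 (chr2:37156961-37157160, minus strand): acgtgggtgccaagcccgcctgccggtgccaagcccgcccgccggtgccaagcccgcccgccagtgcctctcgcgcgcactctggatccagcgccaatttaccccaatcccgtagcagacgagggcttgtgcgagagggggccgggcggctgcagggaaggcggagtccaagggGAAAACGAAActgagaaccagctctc
ISG15 (chr1:1013317-1013516, plus strand): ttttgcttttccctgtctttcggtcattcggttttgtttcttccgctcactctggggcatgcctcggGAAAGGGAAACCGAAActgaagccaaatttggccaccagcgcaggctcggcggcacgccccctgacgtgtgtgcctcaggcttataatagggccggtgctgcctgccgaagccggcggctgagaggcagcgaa
In the ISG15 stretch 2 overlapping matches form 1 run of capitals. IFITM3 holds 2 separate matches, and RSAD2, IFI44 and EIF2AK2 hold 1 each. In the EIF2AK2 stretch the match overlaps the annotated start, beginning at position -6, and in the RSAD2 stretch it begins at position -145 from the start. No ISRE core was found in the windows of HERC6, IRF1 and IFNGR2, whose genes also fell, nor at the other annotated start of RSAD2, which says only that these letters are not there.

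Summed FPKM was 472621 to 509859 in the PTH libraries and 519845 to 532909 in the PBS libraries, and 10538 to 10624 genes per library reached 1 FPKM. Transcripts of the mitochondrial genome took 0.867, 3.61, 2.40 and 3.03% of the summed FPKM in PTH libraries 1 to 4, against 5.78 to 5.90% in the PBS libraries. Of 9 stellate cell and fibroblast markers 7 had a mean of at least 1 FPKM, with sums of 1361 to 1864 FPKM with PTH and 1075 to 1159 FPKM with PBS, while Lrat and Reln were listed at 0 throughout. Of 8 leukocyte markers found, 5 were at 0 in all libraries, Ptprc among them, and Cd14 was the only one with a mean of at least 1 FPKM. The sums of the leukocyte list were 13.1 to 18.7 FPKM with PTH and 14.7 to 20.9 FPKM with PBS. Over the whole series 8559 of 22062 rows were at 0 in all libraries.

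A subset of the interferon-induced genes fell with PTH, and 1 rose. By limma at an adjusted p under 0.05, 10 of the 46 tested members fell (21.7%) and 1, Irf3, rose (2.17%), against 7.96% lower and 3.45% higher among all tested genes. The genes that fell were Gbp5, Rsad2, Ifit2, Gbp2, Ifngr2, Eif2ak2, Herc6, Ifitm3, Irf1 and Ifi44. The falls were moderate, 1.21-fold to 1.72-fold as ratios of mean FPKM. The median log2 fold change of log2(FPKM + 1) over the 46 members was -0.11, beside -0.04 over all tested genes. Every PTH library lay below every PBS library in 18 members (39.1%, against 20.8% of all tested genes), and every PTH library lay above in 4 (8.70%, against 12.7%). At an unadjusted p under 0.05, 18 members were lower and 4 higher, where 21.7% of all tested genes were lower and 12.2% higher. In bulk RNA, less RNA per cell and fewer cells that make it cannot be told apart.

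The calls depended on which libraries entered and on scaling. Only Gbp5 kept its call when PTH library 3 or any PBS library was left out. In those fits between 0.234% and 0.862% of all tested genes were lower. Leaving out PTH library 4 gave 4 lower members (1.61% of all tested genes lower), PTH library 1 gave 11 (8.59%) and PTH library 2 gave 18 (18.1%), so the members' count moved with that of the whole table. After quantile normalization 6 members were lower and 4 higher (Irf3, Irf9, Mx2 and Socs1), with 573 lower and 663 higher genes over the whole table. The same limma test without rescaling of the FPKM gave 849 lower and 368 higher genes. Scaling each library to an equal sum gave 6 lower and 4 higher members and 455 lower and 869 higher genes. Median centring gave 8 lower and 3 higher members (558 and 586 genes), and rescaling without mitochondrial transcripts gave 6 and 2 (580 and 609 genes). The median of the members stayed below that of all genes by 0.07 to 0.08 under these scalings. The 11 called members kept their direction in every alternative run. The authors' deposited table gives 13 tested members an FDR under 0.05 with a lower value and 2 with a higher value, Irf3 and Bst2. At that FDR the authors' deposited table has 15.4% of all tested genes lower and 7.87% higher.

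**Figure D1:**
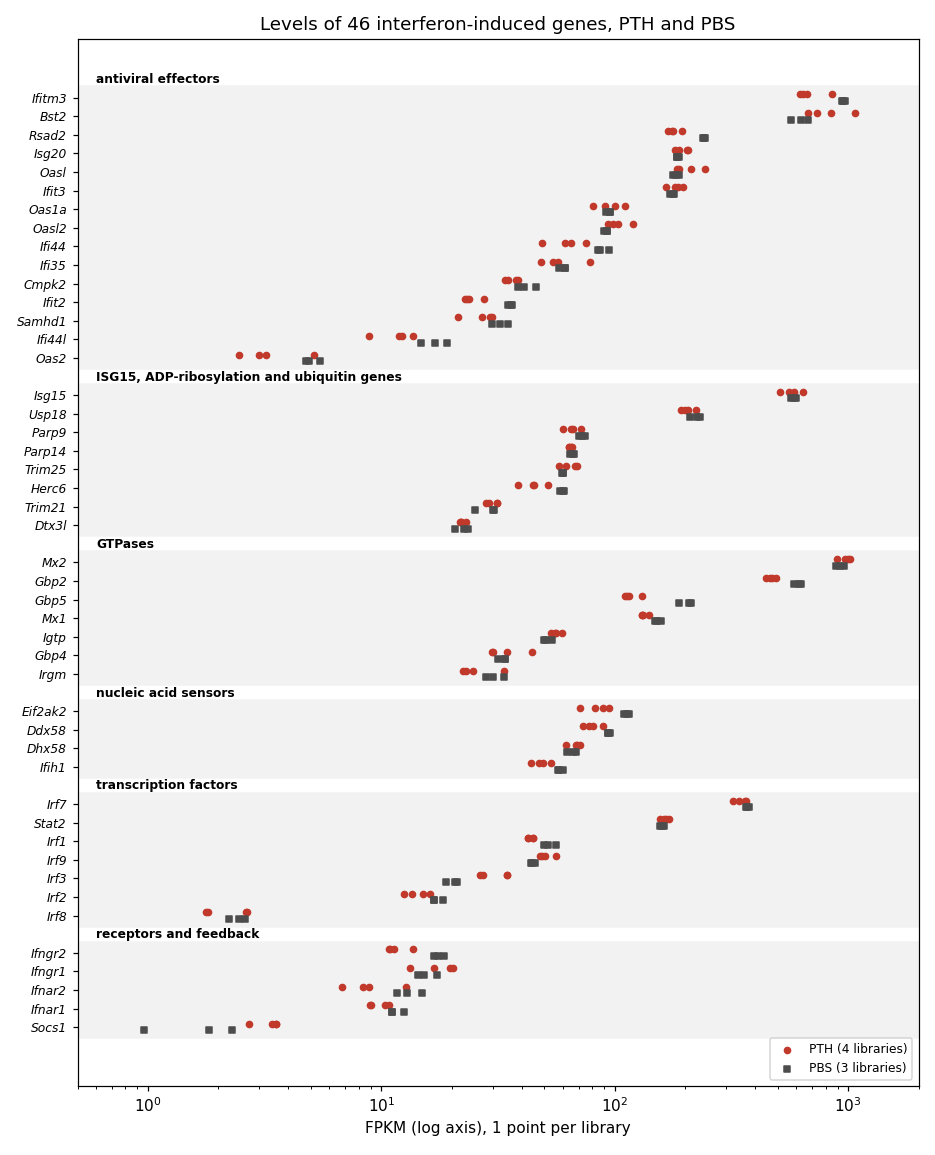
FPKM of the 46 tested interferon-induced genes on a log axis, 1 point per library, with PTH libraries (red circles) above PBS libraries (grey squares) and genes grouped by role. Ifitm3, Mx2, Bst2, Gbp2 and Isg15 lie highest in both groups, and Socs1, Irf8 and Oas2 lowest.

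By level, 40 of the 46 members lay above the median of all tested genes by PBS mean and 14 in the highest 5%. Ifitm3, a membrane protein that blocks virus entry, had the highest PBS mean, with 697 ± 107 FPKM with PTH and 953 ± 10.6 FPKM with PBS (SD, n = 4 and 3). Mx2, a dynamin-like antiviral GTPase, had the highest PTH mean, with 968 ± 53.3 FPKM with PTH and 922 ± 33.1 FPKM with PBS (SD). The members together took 1.28 to 1.38% of the summed FPKM with PTH and 1.33% in each PBS library. The interferon genes themselves were listed at or near 0: of 10 ligand genes found, 8 were at 0 in all libraries. Over the whole series 8559 of 22062 rows were at 0 in all libraries, and whether a listed 0 means no transcript was not tested. Ifnb1, the interferon beta gene, was listed at 1.13, 0, 1.62 and 0 FPKM in PTH libraries 1 to 4 and at 0, 0.851 and 0 FPKM in PBS libraries 1 to 3. The other ligand gene above 0, Ifne, reached 0.543 FPKM with PTH and 0.816 FPKM with PBS, in 1 library each.

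Among antiviral effectors, 4 of 15 tested members fell and none rose, where 7.96% of all tested genes fell and 3.45% rose. The median log2 fold change of the effectors was -0.19. At an unadjusted p under 0.05, 7 were lower and 1 higher (all tested genes, 21.7% and 12.2%). Leaving out PTH library 3 or any PBS library ended all 4 calls, and leaving out PTH library 4 ended those of Ifitm3 and Ifi44. Ifitm3 and Ifi44 also lost their calls without the filter on low values and without the variance trend. The call of Ifi44 was lost as well after quantile normalization, equal sums, median centring and rescaling without mitochondrial transcripts. Rsad2 encodes viperin, a radical SAM enzyme that makes a chain-terminating nucleotide. Rsad2 had 178, 193, 177 and 169 FPKM in PTH libraries 1 to 4, against 241, 243 and 239 FPKM in PBS libraries 1 to 3. The groups were far apart relative to their spread, at a log2 fold change of -0.43 ± 0.06 (SE) and a limma adjusted p of 0.0136. Ifit2, which binds viral RNA and restrains its translation, had 23.7, 27.5, 22.9 and 23.3 FPKM in PTH libraries 1 to 4, against 35.8, 34.9 and 36.4 FPKM in PBS libraries 1 to 3. PTH library 2 was the highest of its group and still below every PBS library (log2 fold change -0.54 ± 0.08, adjusted p of 0.0168). For Ifitm3 the values were 623, 855, 668 and 641 FPKM in PTH libraries 1 to 4, against 945, 965 and 949 FPKM in PBS libraries 1 to 3. The PBS libraries were nearly equal and PTH library 2 came closest to them, and the log2 fold change was -0.46 ± 0.11 with an adjusted p of 0.0392. Ifi44, a cytoplasmic protein gene of the interferon response, had 48.6, 75.1, 64.7 and 61.1 FPKM in PTH libraries 1 to 4, against 85.2, 86.5 and 94.4 FPKM in PBS libraries 1 to 3. PTH library 1 was the lowest, and the change was -0.52 ± 0.13 with an adjusted p of 0.0452.

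The remaining effectors did not pass, and they did not all lie on the same side of 0. Ifi44l, a paralog of Ifi44, had 8.85 to 13.6 FPKM with PTH and 14.9 to 19.2 FPKM with PBS and an adjusted p of 0.0576, without overlap between the groups. Bst2 encodes tetherin, which holds budding virus at the cell surface. Bst2 had 1069.5, 734, 847 and 669.5 FPKM in PTH libraries 1 to 4, against 627, 569 and 674 FPKM in PBS libraries 1 to 3, so that PTH library 4 lay among the PBS values and PTH library 1 far above them. Its log2 fold change was 0.39 with an adjusted p of 0.115. Oas2, an oligoadenylate synthetase that activates RNase L, stood at 3.44 ± 1.17 FPKM with PTH and 5.03 ± 0.368 FPKM with PBS (SD), while its relatives Oas1a, Oasl and Oasl2 had log2 fold changes of 0.01, 0.17 and 0.17. Samhd1, which depletes deoxynucleotides, and Cmpk2, a mitochondrial nucleotide kinase, had log2 fold changes of -0.27 and -0.19, neither called. Ifit3, a binding partner of other IFIT proteins, had 166 to 197 FPKM with PTH and 173 to 179.9 FPKM with PBS (log2 fold change 0.04, 95% interval -0.12 to 0.20). Ifit2 had an interval of -0.73 to -0.35, and the difference between these genes was not tested. Isg20, an exonuclease gene, and Ifi35 had values of 0.06 and -0.03. Ifit1 was listed at 0 in all libraries other than PTH libraries 1 and 3, which held 0.116 and 0.328 FPKM. Close relatives such as the IFIT, OAS and IFITM genes may share reads, and the sources used here do not say how the authors divided them.

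**Figure D2:**
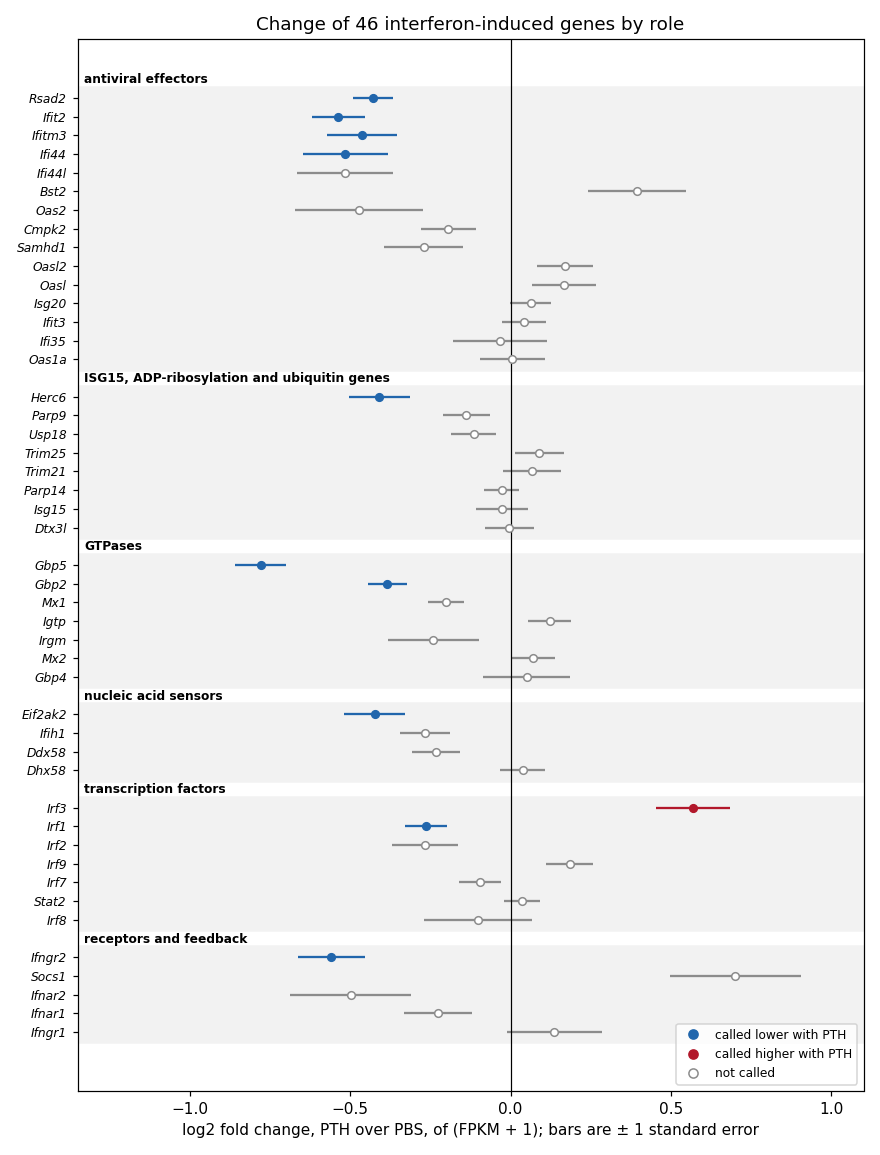
Log2 fold change of PTH over PBS, on log2(FPKM + 1), for the 46 tested genes by role. Points are limma estimates with bars of 1 standard error, filled where the adjusted p was under 0.05, and the 10 blue points below 0 and the single red point above 0 are the called genes.

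Of the 8 members for ISG15 conjugation, ADP-ribosylation and ubiquitin, 1, Herc6, fell and none rose (median log2 fold change -0.03). The shares among all tested genes were 7.96% lower and 3.45% higher. At an unadjusted p under 0.05 the counts were the same, beside 21.7% and 12.2% of all tested genes. The statement holds for these 8 only. Outside them, in the list of further genes below, Ube2l6 was called lower and Uba7 higher (log2 fold changes of -0.33 and 0.49). Both encode enzymes of ISG15 conjugation. Herc6 is the main ISG15 ligase in mice, and ISG15 is a ubiquitin-like protein that is attached to other proteins during the interferon response. Herc6 had 38.6, 51.6, 44.6 and 45.2 FPKM in PTH libraries 1 to 4, against 60.2, 60.6 and 58.5 FPKM in PBS libraries 1 to 3. No PTH library reached the PBS values (log2 fold change -0.41 ± 0.10, limma adjusted p of 0.0386). The call was lost without PTH library 3 or 4 or any PBS library and without the variance trend. It was also lost after quantile normalization, equal sums and rescaling without mitochondrial transcripts. Isg15 itself had 642, 560.1, 588 and 512 FPKM in PTH libraries 1 to 4, against 587, 568 and 598 FPKM in PBS libraries 1 to 3. The PTH values lay on both sides of the PBS values, and the log2 fold change was -0.03 with a 95% interval of -0.22 to 0.16. Usp18, which removes ISG15 and dampens the type I receptor, had 205 ± 12.8 FPKM with PTH and 222 ± 11.5 FPKM with PBS (SD), and its change of -0.12 was not called. The partners Parp9 and Dtx3l had log2 fold changes of -0.14 and -0.00, and the ADP-ribosyltransferase gene Parp14 had 63.6 to 65.3 FPKM with PTH and 64.2 to 66.7 FPKM with PBS. The ubiquitin ligase genes Trim21, an intracellular antibody receptor, and Trim25, an activator of RIG-I, stood at 0.07 and 0.09. After correction for GC content Isg15 was called lower, at a log2 fold change of -0.24.

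Of 7 GTPases, 2 guanylate-binding proteins fell and none rose (median log2 fold change -0.20), where 7.96% of all tested genes fell and 3.45% rose. At an unadjusted p under 0.05, 3 GTPases were lower and 0 higher (all tested genes, 21.7% and 12.2%). Guanylate-binding proteins are interferon gamma targets that attack pathogen vacuoles and promote inflammasome activity. Gbp5 had the strongest fall of all members, with 111, 131, 113 and 115 FPKM in PTH libraries 1 to 4, against 207, 211 and 188 FPKM in PBS libraries 1 to 3. The 2 groups were separated by a wide gap, at a log2 fold change of -0.78 ± 0.08 and a limma adjusted p of 0.00325. Gbp5 passed whichever library was left out, with an adjusted p of 0.00210 to 0.0357. Gbp2 had 446, 491, 470.2 and 464 FPKM in PTH libraries 1 to 4, against 618, 627 and 587 FPKM in PBS libraries 1 to 3. These groups did not overlap either (log2 fold change -0.38 ± 0.06, adjusted p of 0.0187), but Gbp2 lost its call without PTH library 3 or any PBS library. Gbp4, of the same family, had 44.4, 30.2, 34.6 and 29.9 FPKM in PTH libraries 1 to 4, against 34.0, 33.9 and 31.5 FPKM in PBS libraries 1 to 3, with PTH library 1 above and the others around the PBS values (log2 fold change 0.05, 95% interval -0.26 to 0.36). Mx1 had 131 to 139.5 FPKM with PTH and 149 to 158 FPKM with PBS without overlap, and missed the threshold with an adjusted p of 0.0544. Mx2 had 1013, 999.7, 967 and 894 FPKM in PTH libraries 1 to 4, against 919, 890.1 and 956 FPKM in PBS libraries 1 to 3. The groups overlapped, at a log2 fold change of 0.07 with a 95% interval of -0.09 to 0.23. The immunity-related GTPases Igtp and Irgm had log2 fold changes of 0.12 and -0.24, neither called.

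In the sensor group 1 of 4 tested members fell and none rose, where 7.96% of all tested genes fell and 3.45% rose. The median log2 fold change of the sensors was -0.25. At an unadjusted p under 0.05, 3 sensors were lower and 0 higher (all tested genes, 21.7% and 12.2%). Eif2ak2 encodes PKR, a kinase that double-stranded RNA activates and that halts translation. Eif2ak2 had 71.1, 94.2, 82.6 and 88.7 FPKM in PTH libraries 1 to 4, against 113, 116 and 109.6 FPKM in PBS libraries 1 to 3. PTH libraries 2 and 4 lay nearest to the PBS values without reaching them (log2 fold change -0.42 ± 0.10, limma adjusted p of 0.0372). Its call was lost without PTH library 3 or 4 or any PBS library, and without the variance trend. The same held after quantile normalization, equal sums and rescaling without mitochondrial transcripts. The RNA helicases of the RIG-I family differed in their values. Ifih1, which encodes MDA5, had 43.7, 53.1, 49.2 and 47.3 FPKM in PTH libraries 1 to 4, against 57.5, 59.7 and 57.3 FPKM in PBS libraries 1 to 3. Ddx58, which encodes RIG-I, had 73.3, 89.1, 80.4 and 77.7 FPKM in PTH libraries 1 to 4, against 95.3, 93.6 and 93.2 FPKM in PBS libraries 1 to 3. In both genes every PTH library lay below every PBS library, but neither passed, with adjusted p of 0.0576 and 0.0744. Dhx58, which encodes the regulator LGP2, stood at 61.8 to 71.3 FPKM with PTH and 62.6 to 68.4 FPKM with PBS with a log2 fold change of 0.04. Zbp1, a sensor of Z-form nucleic acids that can start necroptosis, was too low for the test, at 0.867 to 1.72 FPKM with PTH and 0.225 to 0.606 FPKM with PBS.

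Among 7 transcription factors Irf1 fell and Irf3 rose, with a median log2 fold change of -0.10, where 7.96% of all tested genes fell and 3.45% rose. At an unadjusted p under 0.05, 2 were lower and 2 higher (all tested genes, 21.7% and 12.2%). Irf1 drives many interferon gamma targets, the guanylate-binding proteins among them. Irf1 had 42.5, 44.8, 42.4 and 44.5 FPKM in PTH libraries 1 to 4, against 51.8, 55.8 and 50.01 FPKM in PBS libraries 1 to 3. The 4 PTH values lay close together below the PBS values, at a log2 fold change of -0.26 ± 0.07 and a limma adjusted p of 0.0426. Irf3, which the sensor kinases activate to induce interferon beta, had 34.7, 27.4, 34.4 and 26.5 FPKM in PTH libraries 1 to 4, against 19.0, 21.1 and 20.8 FPKM in PBS libraries 1 to 3. Its mean with PTH was 1.52-fold that with PBS, and PTH libraries 1 and 3 were higher than 2 and 4 (log2 fold change 0.57 ± 0.12, adjusted p of 0.0314). Both calls were lost without PTH library 3 or any PBS library, and that of Irf1 also without PTH library 4 and without the variance trend. The call of Irf1 was lost as well after quantile normalization, equal sums, median centring and rescaling without mitochondrial transcripts. Stat2 had 164 ± 5.91 FPKM with PTH and 159.5 ± 2.96 FPKM with PBS (SD; log2 fold change 0.04, 95% interval -0.09 to 0.17). Irf9 had 48.0 to 56.1 FPKM with PTH and 43.8 to 45.6 FPKM with PBS, with all PTH libraries above the PBS libraries, but was not called (log2 fold change 0.18, 95% interval 0.02 to 0.35). Irf7, the amplifier of type I interferon production, had 364, 362, 342 and 320.0 FPKM in PTH libraries 1 to 4, against 367, 368 and 377 FPKM in PBS libraries 1 to 3. PTH libraries 1 and 2 lay just below the PBS values and the others further down (log2 fold change -0.10), and after GC correction Irf7 was called lower at -0.35. Irf2, an antagonist of Irf1, had a log2 fold change of -0.27 and Irf8, mainly a factor of blood cells, stood at 2.22 ± 0.491 FPKM with PTH and 2.43 ± 0.196 FPKM with PBS (SD), neither called.

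Of the 4 receptor chains and the feedback gene Socs1, 1 fell and none rose, where 7.96% of all tested genes fell and 3.45% rose. At an unadjusted p under 0.05, 2 of this group were lower and 1 higher, beside 21.7% and 12.2% of all tested genes. Ifngr2, the signalling chain of the interferon gamma receptor, had 10.9, 13.7, 10.8 and 11.4 FPKM in PTH libraries 1 to 4, against 17.5, 18.6 and 16.8 FPKM in PBS libraries 1 to 3. All PTH libraries lay below the PBS libraries, with PTH library 2 the nearest, at a log2 fold change of -0.56 ± 0.10 and a limma adjusted p of 0.0276. This call was lost without PTH library 3 or 4 or any PBS library. Its partner Ifngr1, the ligand-binding chain, had 16.9, 13.3, 19.7 and 20.2 FPKM in PTH libraries 1 to 4, against 14.4, 15.3 and 17.3 FPKM in PBS libraries 1 to 3. The groups overlapped there, with a log2 fold change of 0.14 and a 95% interval of -0.20 to 0.47. For the type I receptor, Ifnar2 had 9.21 ± 2.54 FPKM with PTH and 13.2 ± 1.65 FPKM with PBS (SD, adjusted p of 0.107) and Ifnar1 had 8.95 to 10.8 FPKM with PTH and 11.1 to 12.6 FPKM with PBS (adjusted p of 0.171). In Ifnar2 PTH library 2 lay among the PBS values, and the call was made without that library. Socs1, which inhibits JAK kinases, had 3.41, 3.54, 3.54 and 2.71 FPKM in PTH libraries 1 to 4, against 1.82, 0.967 and 2.30 FPKM in PBS libraries 1 to 3. Its level was low and all PTH libraries were above the PBS libraries (log2 fold change 0.70 ± 0.20, adjusted p of 0.0581). Socs1 was called higher under each of the 4 other scalings, with sample quality weights and among genes with a human counterpart only. It was not called in any fit with 1 library left out (limma adjusted p of 0.0669 to 0.174). Nor was it called with a pseudocount of 0.1, without the filter on low values or without the variance trend. After GC correction its log2 fold change was 0.41 with a limma adjusted p of 0.207.

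**Figure D3:**
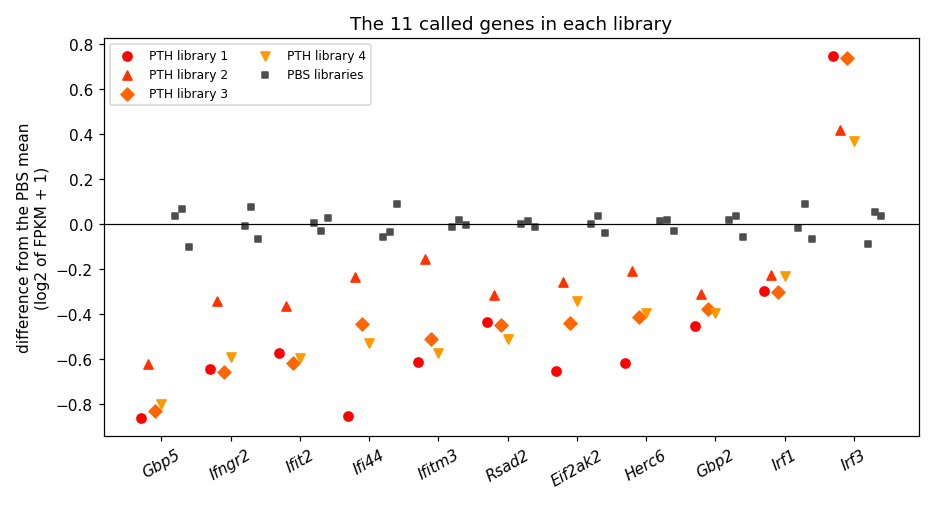
Difference of each library from the PBS mean, on log2(FPKM + 1), for the 11 called genes from the strongest fall to the rise of Irf3. PTH library 2 (triangles pointing up) is the PTH library nearest 0 in each of the 10 genes that fell, and the PBS libraries (grey squares) lie around 0.

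The PTH libraries differed among themselves in the genes that fell. Library 2 held the highest value of the 4 PTH libraries in 10 of the 10 genes, as it did in 593 of all 849 genes called lower (69.8%), while the lowest library varied: library 1 held the lowest in 6, library 3 in 3 and library 4 in 1. Relative to the PBS mean these 10 genes had a median difference of -0.62, -0.28, -0.45 and -0.52 in PTH libraries 1 to 4, a description of genes chosen for being lower. Over all 46 members it was -0.07, -0.07, -0.10 and -0.22, and over all tested genes -0.02, -0.00, -0.04 and -0.10. The mitochondrial share given above was highest in PTH library 2 and lowest in PTH library 1 within the PTH group. With FPKM rescaled without mitochondrial transcripts Gbp2, Gbp5, Ifit2, Ifitm3, Ifngr2 and Rsad2 were called, and Ifi44, Herc6, Eif2ak2 and Irf1 were not (log2 fold changes of -0.47, -0.36, -0.38 and -0.22). The part of the mitochondrial share in the result was not tested.

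Changes also went with base composition. A human counterpart transcript with a GC content was available for 43 of the 46 members (93.5%) and 9437 of all tested genes (88.5%). Across genes the Spearman correlation of the log2 fold change with GC content was 0.47 over the 43 members and 0.47 over all 9437, given as a description since genes of the same libraries are not independent. In the quintile of all genes with the lowest GC content the median log2 fold change was -0.26 and 15.9% were lower, and in the quintile with the highest it was 0.14 and 1.38% were lower. Of the 10 genes that fell, 3 lay in the lowest quintile and none in the highest. Their median GC content was 44.5%, beside 49.9% for the other members and 48.7% for all genes. Gbp5, Eif2ak2 and Ifi44 are poor in GC, and Rsad2, Ifit2, Herc6 and Gbp2 are also below the median of all genes. Ifitm3, Ifngr2 and Irf1 are above it. Irf3, which rose, has a GC content of 61.5% and lies in the highest quintile, where 7.47% of all genes were higher. After a correction of each library for GC content, added after the data were seen, 12 members were lower and 1 higher, where 7.09% of the 9437 genes were lower and 2.96% higher. Without the correction the same genes gave 11 lower and 2 higher members, with 9.79% and 4.25% of the genes. The 12 include 9 of the 10 genes above, all but Ifi44, and in addition Irf7, Isg15 and Mx1.

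**Figure D4:**
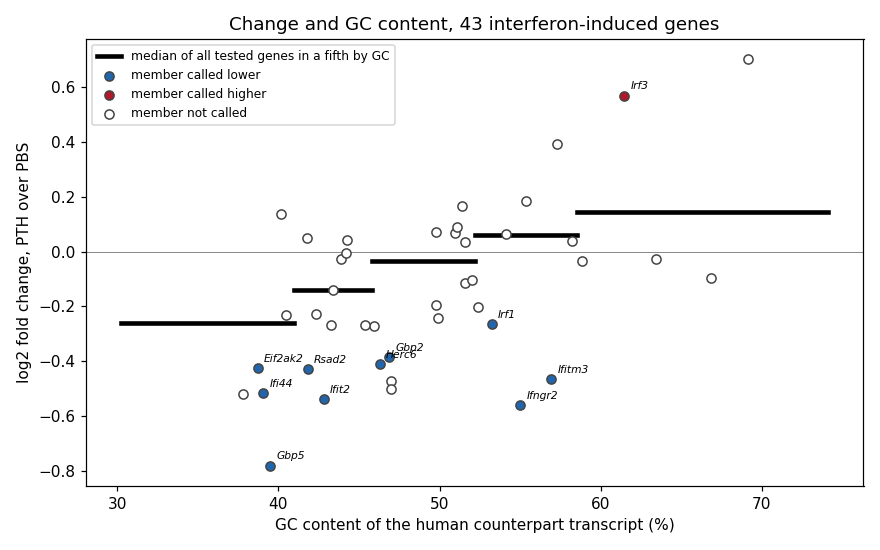
Log2 fold change of PTH over PBS against GC content, taken from the transcript of the human counterpart, for 43 interferon-induced genes, with the median of all tested genes in each quintile by GC content as black bars. The bars climb from left to right. The 10 genes called lower (blue) lie below the bar of their quintile, but they were chosen for being lower in these data.

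Other genes of the pathway were counted in 4 lists. Of 17 tested JAK and STAT signalling genes 2 fell and 1 rose, with a median log2 fold change of -0.03. Of all tested genes 7.96% fell and 3.45% rose. At an unadjusted p under 0.05, 2 of the 17 were lower and 1 higher (all tested genes, 21.7% and 12.2%). Jak2, a kinase of the interferon gamma receptor, had 19.4 ± 3.88 FPKM with PTH and 34.9 ± 2.04 FPKM with PBS (SD, limma adjusted p of 0.0234). Pias1, a SUMO ligase gene, fell by 0.61 on the log2 scale and its relative Pias4 rose by 0.64. Jak1 and Tyk2, kinases of the type I receptor, were not called, with log2 fold changes of -0.02 and -0.03. Among 13 sensor adaptors and kinases 3 fell and none rose (median -0.09), with 4 lower and 1 higher at an unadjusted p under 0.05 (all tested genes, 21.7% and 12.2%). They were Tank at 7.54 ± 1.32 FPKM with PTH and 14.2 ± 0.785 FPKM with PBS, Tbk1 at 35.9 ± 5.97 FPKM with PTH and 52.6 ± 4.40 FPKM with PBS and Ikbke at 8.29 ± 1.22 FPKM with PTH and 12.4 ± 0.458 FPKM with PBS (SD), an adaptor and the 2 kinases that phosphorylate IRF3. Of 50 further interferon-induced genes 12 fell and 1, Uba7, rose (median -0.10), where 7.96% of all tested genes fell and 3.45% rose. At an unadjusted p under 0.05, 19 of these genes were lower and 4 higher (all tested genes, 21.7% and 12.2%). Among the 50, the 4 genes with the smallest p were Cxcl10, Ccl5, Slfn4 and Cxcl11. Cxcl10, which attracts T cells through the receptor CXCR3, had 928 ± 56.0 FPKM with PTH and 1439 ± 31.5 FPKM with PBS (SD, limma adjusted p of 0.00512). Ccl5, a chemokine gene, had 21.9 ± 4.29 FPKM with PTH and 50.8 ± 2.13 FPKM with PBS, and Cxcl11, another ligand of that receptor, had 7.74 ± 2.90 FPKM with PTH and 22.3 ± 0.764 FPKM with PBS (SD). Slfn4, a Schlafen family gene, fell by 0.66 on the log2 scale. The list names Slfn3, which was matched to the row of Slfn4 through a synonym given there. Uba7, the enzyme that activates ISG15, had 39.5 ± 5.90 FPKM with PTH and 27.6 ± 1.97 FPKM with PBS (SD, adjusted p of 0.0412). Without PTH library 3 or any PBS library, no JAK and STAT gene and no adaptor was called, and without PTH library 4 only 1 adaptor was. In the list of further genes 10, 16, 2 and 5 were called lower without PTH libraries 1 to 4, and 0, 2 and 3 without PBS libraries 1 to 3. All tested genes called lower numbered 916, 1926, 67 and 172 without PTH libraries 1 to 4, and 25, 39 and 92 without PBS libraries 1 to 3. Higher calls in that list were 2 without PTH library 2 and 0 in the other 6 of these fits, so the call of Uba7 was lost there. None of the 10 interferon ligand genes reached the level for a test.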

How the data were processed

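RNA of 7 libraries, 4 with PTH and 3 with PBS, was measured as FPKM in tables that the authors deposited, and the labels gave the groups. The submitters' processing notes name Bowtie 0.12.2 and the mouse build mm8 without giving their roles, while the rows carry rat Ensembl identifiers. The program that made the FPKM values is not given in the sources used here, and FPKM holds no depth. Both tables were joined, the row with the highest mean was kept per symbol, and limma 3.58.1 in R 4.3.3 tested log2(FPKM + 1), PTH minus PBS, with a variance trend, where a gene's mean FPKM was 1 or more. Fold changes on this scale understate those of low genes. P-values were two-sided, and were adjusted by Benjamini-Hochberg over all 10667 genes. The deposited p-values, FDR and log2 fold changes are the authors', and the sources used here do not name their test. The log2 fold changes of one deposited table include infinite values and were treated as a score, and only counts by FDR and direction are printed. The limma code was tested on simulated data. All members are named, with values per library for those called and the highest of each role. Members and lists were chosen with earlier results of these data known. The correction for GC content and the fit of genes with a human counterpart were chosen after seeing the data. Alternatives changed 1 choice at a time (pseudocount, filter, scaling, variance model, library weights, each library left out), except that the replicate block also left out PTH library 4, and the GC correction also kept only genes with a human counterpart.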

Additional observations from a re-analysis of the deposited data

Results flagged for a closer look

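In 3 of the 46 tested members 1 of the 4 PTH libraries stood far from the others, by the gap to the nearest library as a share of the group's range; chance alone marks about 1 in 20 groups. Ifit2 had 27.5 FPKM in PTH library 2 and 22.9 to 23.7 FPKM in the other PTH libraries, a share of 0.836. Mx1 had 140 FPKM in PTH library 2 and 131 to 132 FPKM in the others, a share of 0.893. Socs1 had 2.71 FPKM in PTH library 4 and 3.41 to 3.54 FPKM in the others, a share of 0.835. In Ifit2 and Mx1 that library lies nearest to the PBS values, as does PTH library 4 in Socs1.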

How the results depend on the processing

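No called member reversed its direction under any alternative. A pseudocount of 0.1, a minimum mean of 5 FPKM and summing rows of a symbol left 10 members lower and 1 higher. In these runs, in that order, 7.53%, 10.3% and 7.96% of all tested genes were lower and 3.32%, 4.4% and 3.46% higher. At the minimum mean of 5 FPKM 43 members were tested. Scaled to an equal sum per library, 6 members were lower and 4 higher (455 and 869 genes in all) and the median log2 fold change of the members was -0.030. Without mitochondrial transcripts 6 and 2 members were called, with 609 genes higher in all, and after quantile normalization 6 and 4, with 663 higher in all. Median centring gave 3 higher members (558 lower and 586 higher genes), no filter 551 and 211 genes in all, and no variance trend 5 lower members (439 and 181 genes in all). Sample quality weights gave 23 lower and 10 higher members (4317 and 3110 genes). Genes with a human counterpart only gave 11 lower and 2 higher members, with 9.79% and 4.25% of these genes. Leaving out each library in turn gave 1 to 18 lower and 0 to 1 higher members, 25 to 1926 lower and 3 to 825 higher genes in all, and a median of -0.16 to -0.07. Same-numbered libraries did not deviate together (correlations of -0.00673, -0.000128 and -0.0385), and PTH library 3 with PBS library 1 had 0.0869. With so few libraries these values cannot tell whether the numbers pair them. A fit with the replicate block, which leaves out PTH library 4, called 0 members in either direction by limma (14 lower and 3 higher at an unadjusted p under 0.05) and 17 lower and 2 higher genes in all, and Gbp5 had an adjusted p of 0.0517. The cause of these shifts was not tested. FPKM holds no read depth, so counting error could not be given.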
